A study of Mus musculus with 8 samples.

Results

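The genes described here are 31 mouse genes of sterol and fatty acid synthesis, the sterol regulatory element-binding protein (SREBP) pathway, taken from a list of gene symbols. They were found on the arrays through the transcript accession of each probe. All 31 had a probe well above background in all 16 channels, and they made up 31 of the 21941 genes tested and 41 of the 39429 probes on the array. By role, 7 act in the mevalonate steps, 11 at squalene and in the later sterol steps, 5 in regulation, 3 in sterol transport within the cell and 5 in fatty acid synthesis.

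RNA came from microvessels, enriched by density and filtration from mouse forebrain, of animals 5 days old (P5), 10 days old (P10) and adult. The labels give no strain, sex or adult age, and no treatment or allele that would set the groups apart. Each of 8 Agilent two-colour arrays paired RNA of 2 ages, as P5 with adult, P10 with adult, P10 with adult with the dyes exchanged, and P5 with P10, in each of 2 replicates. A replicate equals a slide of 4 arrays. The P5 RNA always carried Cy5, so the exchanged dyes measured the dye effect only between P10 and adult. The labels do not say whether the replicates came from separate animals or pools, so the p-values cover no more than the spread between these samples, part or all of which could be technical.

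Cells make cholesterol from acetyl-CoA through mevalonate, squalene and lanosterol. When membranes of the endoplasmic reticulum hold little sterol, Scap carries the SREBP proteins to the Golgi for cleavage, and the released fragments switch on genes of cholesterol and fatty acid synthesis; Insig proteins hold Scap back when sterol is plentiful. The brain makes nearly all of its own cholesterol, because lipoproteins of the blood do not cross the blood-brain barrier, and demand for it is high while neurons and glia grow and myelin forms.

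SREBP target promoters are known for a sterol regulatory element beside sites for the factors NF-Y and Sp1. The RefSeq table of promoters (GRCm38.p6) held a window for 24 of the 31 genes, and the 250 bases before each start were searched on both strands. Fdps, Fdft1, Sqle, Stard4, Scd1, Scd2 and Npc1 had none in the table. These 4 windows are printed because they pair genes of unlike behaviour in the data: Hmgcs1 and Cyp51 were higher at P5 than in the adult, Ebp was lower, and Idi1 did not pass the test in any comparison. They lie at chr13:119690101-119690350 on the plus strand for Hmgcs1, chr5:4104698-4104947 on the minus strand for Cyp51, chr13:8885356-8885605 on the plus strand for Idi1 and chrX:8193513-8193762 on the minus strand for Ebp. Each is written 5′ to 3′ towards the gene and overlaps no other annotated gene, and capitals mark matches to TCACNCCAC or CCAAT on either strand.
Hmgcs1: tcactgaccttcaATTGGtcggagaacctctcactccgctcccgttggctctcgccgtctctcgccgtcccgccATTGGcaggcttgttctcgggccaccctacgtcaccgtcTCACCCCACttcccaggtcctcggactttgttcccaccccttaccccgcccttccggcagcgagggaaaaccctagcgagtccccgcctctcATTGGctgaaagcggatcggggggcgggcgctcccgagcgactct
Cyp51: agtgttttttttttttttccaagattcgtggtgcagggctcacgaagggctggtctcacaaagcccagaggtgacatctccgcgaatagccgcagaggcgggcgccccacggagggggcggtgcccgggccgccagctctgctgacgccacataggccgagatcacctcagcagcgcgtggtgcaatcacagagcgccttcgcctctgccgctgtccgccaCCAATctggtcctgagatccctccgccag
Idi1: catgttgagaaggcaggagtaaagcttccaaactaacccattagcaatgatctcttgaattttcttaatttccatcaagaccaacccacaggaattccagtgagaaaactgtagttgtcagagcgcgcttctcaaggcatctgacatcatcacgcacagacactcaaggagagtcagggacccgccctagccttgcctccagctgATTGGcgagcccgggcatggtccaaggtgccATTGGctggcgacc
Ebp: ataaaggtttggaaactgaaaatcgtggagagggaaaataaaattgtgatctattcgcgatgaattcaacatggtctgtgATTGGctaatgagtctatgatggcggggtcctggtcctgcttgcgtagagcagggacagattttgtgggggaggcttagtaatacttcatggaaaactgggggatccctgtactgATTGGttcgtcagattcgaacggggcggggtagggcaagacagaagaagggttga
The element TCACNCCAC was found for 1 of the 24 members with a window (4.17%), Hmgcs1, at 137 bases before the start. It was in 1.05% of 32851 promoters in the table and was found for 1.29% of the 12366 genes tested that had a window. Members and genes tested count once each, by a match in any window, whereas the share of the table counts every promoter. CCAAT was found for 20 of 24 (83.3%), against 33.8% of all promoters and 39.9% of the genes tested with a window. GGGCGG, the Sp1 motif, was in 21 of 24 (87.5%), against 32.7% and 58.9%. Scap, Acat2, Acly and Elovl6 had a window without CCAAT. All 4 printed windows held it: 237, 176 and 45 bases before the start of Hmgcs1, 29 before Cyp51, 45 and 14 before Idi1, and 170 and 55 before Ebp. A match is a run of letters, not a measured site, and the arrays hold no binding data. Only TCACNCCAC was searched for the sterol regulatory element, so a variant with other letters would be missed. A window without a match is thus not shown to lack the element.

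All values below are log2 ratios between ages, where 1 is a 2-fold difference, so they compare ages for a gene and not one gene with another. For each replicate, the 4 ratios were resolved into P5 against adult and P10 against adult with a dye term. A gene is called when limma's adjusted p (Benjamini-Hochberg over 21941 genes) is below 0.05. Each SE is limma's, taken from all ages of a gene and drawn towards the spread of the other genes. It is not the spread between the replicate values of a single comparison and can be smaller. The 3 comparisons share samples, so P5 against P10 is not independent of the other two. In replicate 1, the P10/adult array with exchanged dyes had 4 spots, and in replicate 2 the P5/P10 array had 7 spots, whose recorded background lay far above their signal. Those spots were left out. Without both arrays, 17 genes were called between P5 and adult, 0 between P10 and adult (11 at an unadjusted p under 0.05 in limma) and 4 between P5 and P10, in place of 19, 7 and 13. The share of all genes called was then 37.8%, 8.65% and 25.8%, in place of 53.1%, 17.5% and 41.2%.

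Of the 31 genes, 13 stood higher and 6 lower at P5 than in the adult, and 12 did not pass the test. The 61.3% called compare with 53.1% of all genes tested (30.1% higher and 23% lower). The median over the members was 0.23 (0.28 and 0.27 in the replicates), and the median over all genes was 0.09. Between P10 and adult, 5 were higher and 2 lower, or 22.6% beside 17.5% of all genes (8.42% higher and 9.1% lower), with a median of 0.03 (0.19 and 0.02) beside 0.01. Between P5 and P10, 10 were higher and 3 lower at P5, or 41.9% beside 41.2% of all genes (23% higher and 18.2% lower), with a median of 0.14 (0.15 and 0.26) beside 0.06. The shares called were thus near those of the array as a whole. The values of P5 against adult ran from -0.97 (Scd1) to 1.90 (Tm7sf2). The sign was the same in both replicates for 25 of 31 members in that comparison (87.3% of all genes), 29 between P10 and adult (74.3%) and 26 between P5 and P10 (82.6%).

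**Figure D1:**
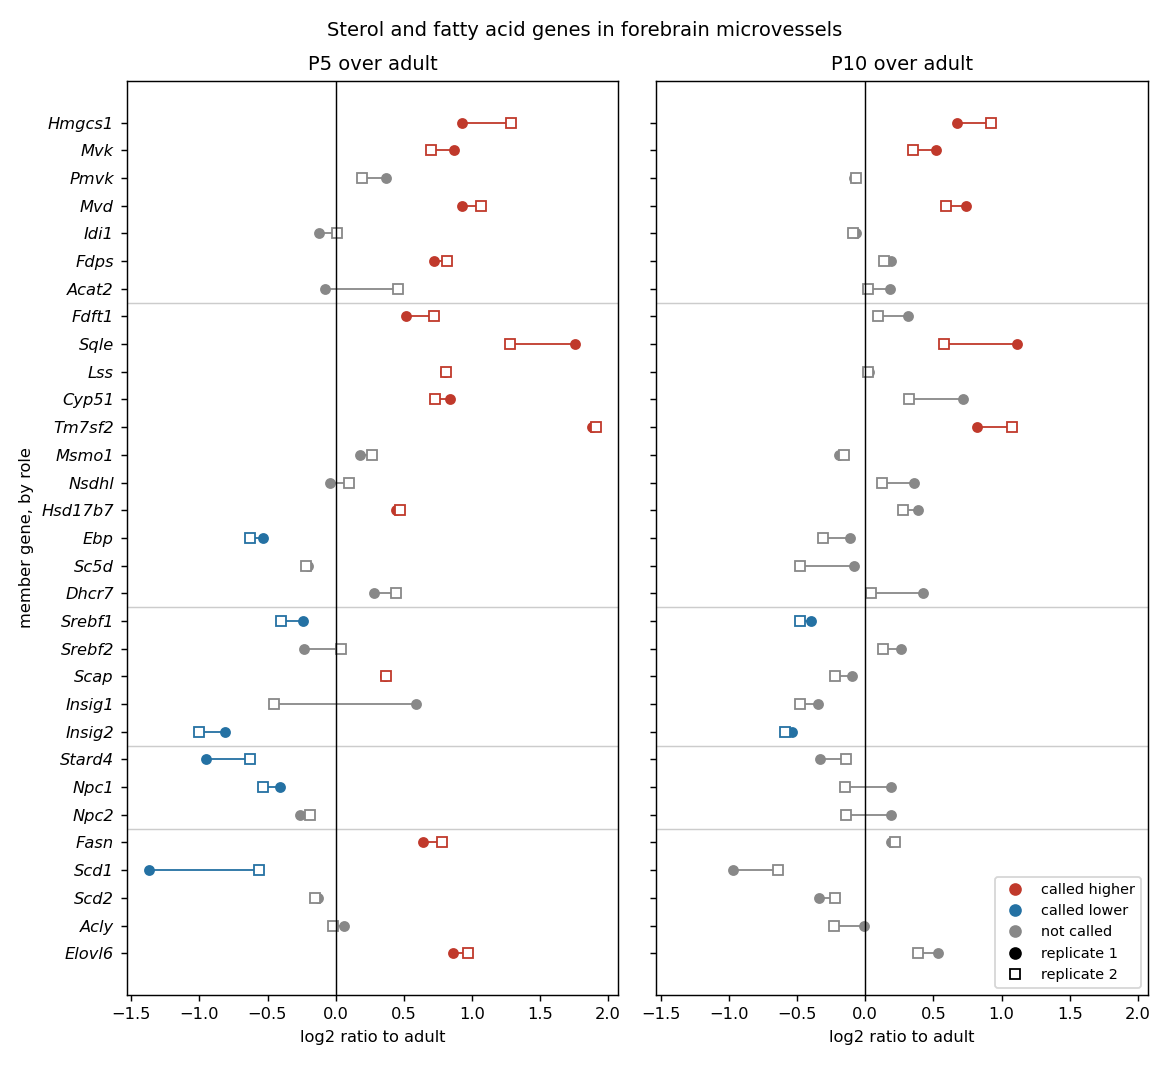
Log2 ratio of each of the 31 genes at P5 and at P10 relative to the adult, grouped by role, with a point for each of the 2 replicates. Tm7sf2 and Sqle lie farthest above 0 and Scd1, Insig2 and Stard4 farthest below at P5, and the replicates of Insig1 lie on either side of 0.

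**Figure D2:**
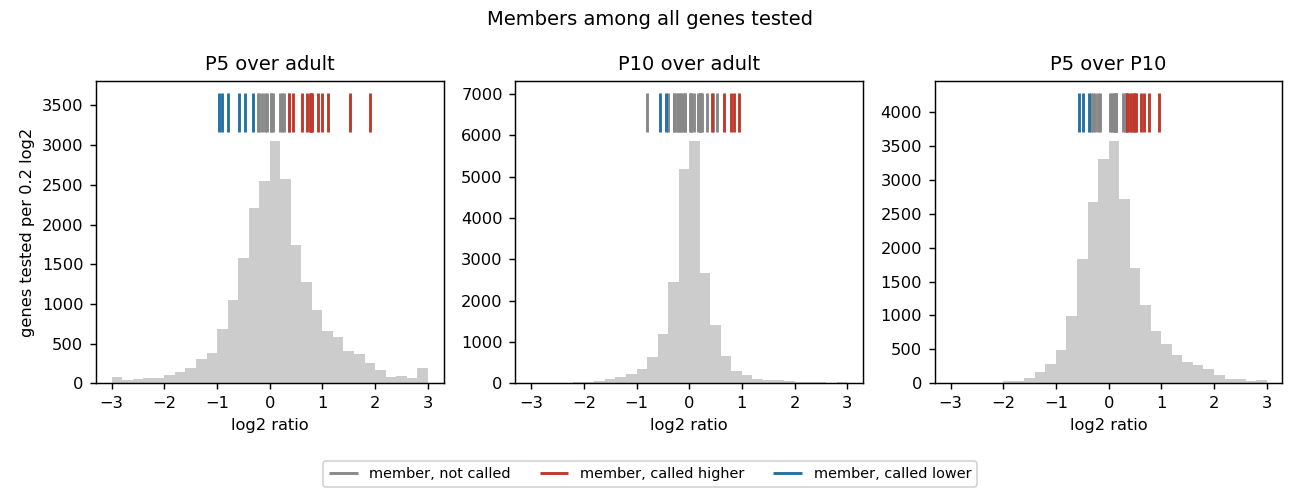
Distribution of log2 ratios of all 21941 genes tested in each comparison, with values beyond 3 in either direction counted in the end bins, and marks for the 31 genes. The members spread on both sides of 0 within the range of the other genes, with medians of 0.23, 0.03 and 0.14.

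Cell type markers in the microvessel preparations differed with age. As a scale for the counts below, P5 against adult called 30.1% of all genes tested as higher and 23% as lower. P10 against adult called 8.42% as higher and 9.1% as lower, while P5 against P10 called 23% and 18.2%. All 10 endothelial markers were lower at P5 than in the adult (median -1.85), as were 5 of 6 pericyte markers (-1.47), 5 of 5 smooth muscle markers (-2.65) and 9 of 12 markers of myelinating oligodendrocytes (1 higher, median -1.49). Higher at P5 were 5 of 5 erythroid markers (4.92), 4 of 4 of dividing cells (3.37), 5 of 5 of immature neurons (2.72) and 5 of 6 of oligodendrocyte precursors (1 lower, median 0.90). Astrocyte markers were 3 higher and 3 lower of 9 (-0.24), microglial markers 1 higher of 5 (0.59), and mature neuronal markers 3 lower of 4 tested (-1.04). At P10 the medians against the adult were -0.52 for endothelium (4 of 10 lower), -1.20 for myelinating oligodendrocytes (9 of 12 lower), 1.37 for immature neurons (5 of 5 higher), 2.26 for erythroid cells (4 of 5 higher) and 3.87 for dividing cells (4 of 4 higher). Mature neuronal markers were lower at P10 in 4 of 4 (-1.17), pericyte markers in 3 of 6 (-0.69) and smooth muscle markers in 1 of 5 (-0.37), while 2 of 6 precursor markers were higher (0.37). Astrocyte markers were 1 higher and 1 lower of 9 (-0.15), and 0 of 5 microglial markers were called (0.31). Against P10, endothelial markers were lower at P5 in 10 of 10 (-1.33), smooth muscle markers in 5 of 5 (-2.05), pericyte markers in 5 of 6 (-1.02) and markers of dividing cells in 3 of 4 (-0.50). Markers of immature neurons (1.72) and erythroid cells (2.54) were higher in 5 of 5 each, and precursor markers in 4 of 6 (1 lower, 0.60). Myelinating oligodendrocytes had 2 higher and 3 lower of 12 (-0.32), astrocytes 3 higher and 2 lower of 9 (-0.25), mature neurons 2 higher of 4, and microglia 0 called of 5 (0.45). Endothelial markers were well above background in all 16 channels, and so were all marker genes tested except 1 each in the lists for myelinating oligodendrocytes, erythroid cells and dividing cells. For some lists the medians of the 2 replicates differed in sign. For microglia they were -0.04 and 1.05 at P5 against the adult, and -0.13 and 1.16 against P10. At P5 against P10 they were 0.16 and -0.04 for astrocytes, and -0.06 and 0.27 for mature neurons. Smooth muscle gave -0.76 and 0.06 at P10 against the adult. The part of the marker shifts in the results that follow was not tested. In a bulk preparation, fewer cells of a type and less RNA per cell cannot be told apart.

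The mevalonate steps were higher at P5 than in the adult in 4 of 7 genes and lower in 0, with a median of 0.77. The 57.1% called compare with 53.1% of all genes (30.1% higher and 23% lower). Hmgcs1, the cytosolic synthase that joins acetyl-CoA to acetoacetyl-CoA on the way to mevalonate, gave 0.76 and 1.28 on the P5/adult arrays of replicates 1 and 2. On the P10/adult arrays it gave 0.65 and 0.78, with 0.80 and 0.98 when the dyes were exchanged, and on the P5/P10 arrays 0.28 and 0.18. All 8 arrays put the younger age higher. The fitted difference between P5 and adult was 1.11 ± 0.12 (SE, n = 2), a 2.16-fold excess at P5 (limma adjusted p = 0.00291). At P10 it was still 0.80 ± 0.12 above the adult (limma adjusted p = 0.018), and the step from P5 to P10 did not pass (0.31, adjusted p = 0.104).

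Mvd, the decarboxylase that makes isopentenyl diphosphate, had a similar course. Its P5/adult arrays gave 0.86 and 1.0, its P10/adult arrays 0.75 and 0.60, the dye-exchanged arrays 0.79 and 0.64, and its P5/P10 arrays 0.22 and 0.50. The younger age was higher on all 8. The P5 excess was 1.0 ± 0.11 (SE, n = 2; limma adjusted p = 0.00299) and the P10 excess 0.67 ± 0.11 (0.0225), and P5 against P10 did not pass (0.33, 0.0709).

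Mevalonate kinase, Mvk, was higher at the younger age in all 3 comparisons. It stood 0.87 and 0.70 above the adult at P5 in the replicates and 0.52 and 0.35 at P10. The adjusted p in limma was 0.00435 for P5 and close to the threshold for P10 (0.0492) and for P5 against P10. A dimmer probe of Mvk gave 0.54 at P5 (adjusted p = 0.0145), 0.44 at P10 (0.0576) and 0.10 between P5 and P10 (0.514).

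Fdps, the synthase of farnesyl diphosphate, from which both sterols and protein prenyl groups derive, was high at P5. Its P5 values were 0.72 and 0.82 above the adult and its P10 values 0.19 and 0.14. The P5 excess was 0.77 ± 0.10 (SE, n = 2; limma adjusted p = 0.0041), the P10 value did not pass (0.16, 0.342), and P5 exceeded P10 by 0.61 (0.0133).

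Among the other mevalonate genes, Pmvk, which adds the next phosphate, passed only between P5 and P10 (0.35, limma adjusted p = 0.0495), with 0.28 between P5 and adult (0.0749). The isomerase Idi1 lay at -0.06 at P5 (-0.12 and 0.01) and -0.08 at P10, with no call. Acat2, the cytosolic thiolase that feeds the pathway, gave 0.19 ± 0.19 at P5, and its replicates differed in sign (-0.08 and 0.46). Over the group, P10 exceeded the adult in 3 of 7 genes (median 0.16) and P5 exceeded P10 in 3 of 7 (0.33). None was lower in either comparison. The 42.9% called in each case compare with 17.5% and 41.2% of all genes called in either direction, and with 8.42% and 23% called higher.

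At squalene and in the later sterol steps, the P5 level exceeded the adult in 6 of 11 genes and lay below it in 1, with a median of 0.45. This is 63.6% called, beside 53.1% of all genes (30.1% higher and 23% lower). Tm7sf2, a sterol reductase that acts after lanosterol is demethylated, had the largest difference of the 31. Its P5/adult arrays gave 1.64 and 2.04, its P10/adult arrays 0.83 and 1.05, the dye-exchanged arrays 0.97 and 1.01, and its P5/P10 arrays 1.16 and 0.75. The order P5, P10, adult thus held on every array. The P5 level was 3.72-fold that of the adult (1.90 ± 0.11, SE, n = 2; limma adjusted p = 0.000843), the P10 level 1.93-fold (0.95, 0.00977), and P5 exceeded P10 by 0.95 (0.00749). Its other probe gave 1.48 at P5 (adjusted p = 0.00103).

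Sqle, squalene epoxidase, a rate-limiting enzyme of the sterol branch, followed the same order. The P5/adult arrays gave 1.65 and 1.13, the P10/adult arrays 0.96 and 0.48, the dye-exchanged arrays 1.23 and 0.72, and the P5/P10 arrays 0.49 and 0.61. Replicate 1 exceeded replicate 2 in both comparisons with the adult, and all 8 arrays had the same sign. P5 exceeded the adult 2.87-fold (1.52 ± 0.16, SE, n = 2; limma adjusted p = 0.00255), P10 exceeded the adult by 0.85 (0.0294) and P5 exceeded P10 by 0.67 (0.0284). The replicates of P10 against adult differed by 0.52, the widest gap among the members in that comparison.

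Lss, which closes squalene epoxide into lanosterol, was higher at P5 than at both later ages. Its P5/adult arrays gave 0.76 and 0.71 and its P5/P10 arrays 0.55 and 0.85. The P10/adult arrays gave -0.13 and 0.05, and 0.12 and 0.08 with exchanged dyes, which is on both sides of 0. P5 was 0.80 ± 0.09 above the adult (SE, n = 2; limma adjusted p = 0.00317) and 0.77 above P10 (0.00757), whereas P10 against adult was 0.03 (0.884). The courses of Lss and Sqle were not tested against each other.

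**Figure D3:**
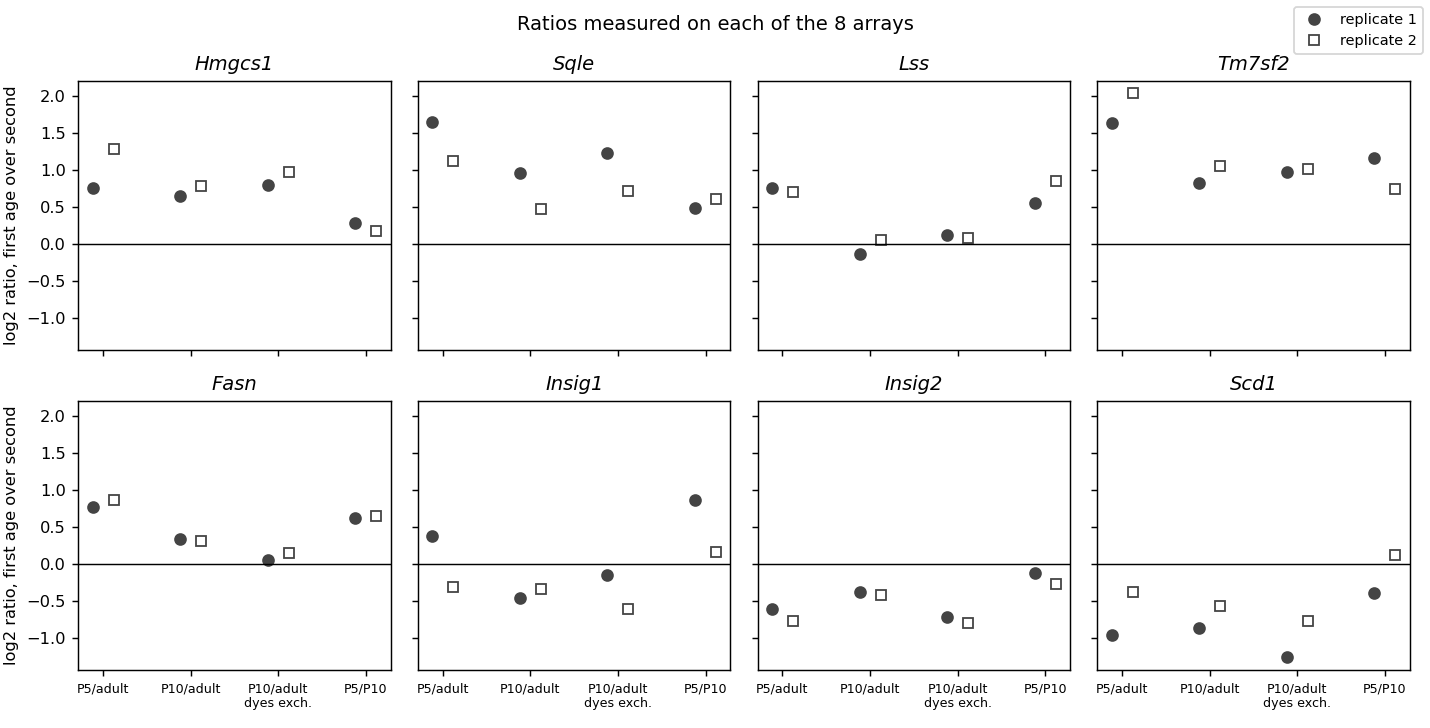
Log2 ratio of the younger over the older age on each of the 8 arrays for 8 of the genes, by array pair and replicate, with the dye-exchanged arrays turned to the same direction. Hmgcs1, Sqle and Tm7sf2 are above 0 on all arrays, Lss is near 0 between P10 and adult, Insig2 is below 0 on all arrays, and Insig1 changes sign between the P5/adult arrays.

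Cyp51, the lanosterol demethylase, exceeded the adult by 0.84 and 0.73 at P5 and by 0.72 and 0.32 at P10. The P5 difference passed (0.79 ± 0.13, SE, n = 2; limma adjusted p = 0.00817) and the P10 difference, 0.52, did not (0.0579). Fdft1, squalene synthase, was 0.52 and 0.72 above the adult at P5 (adjusted p = 0.0156). Its other probe, however, gave 0.01 (0.947), so the call rests on the brighter probe. At P10 its probes differed in sign without a call, at 0.20 and -0.07. Hsd17b7, a ketosteroid reductase, was in the same position: 0.45 from the brighter probe (limma adjusted p = 0.0172) and -0.07 from the other (0.721), and 0.12 and -0.20 between P5 and P10 with no call.

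Ebp, the sterol isomerase, was the member of the sterol steps that was lower at P5. It stood at -0.53 and -0.63 against the adult in the replicates and at -0.11 and -0.31 at P10. The P5 level was 1.5-fold below that of the adult (-0.58 ± 0.10, SE, n = 2; limma adjusted p = 0.00993) and -0.37 relative to P10 (0.043). Msmo1, the methylsterol monooxygenase, passed only between P5 and P10, at 0.40 (0.0283). Nsdhl, Sc5d and Dhcr7, which act in demethylation, desaturation and the final reduction, were not called in any comparison, with P5 values of 0.03, -0.21 and 0.36. A second probe of Nsdhl gave -0.09, with no call. For the 11 genes, 2 were higher at P10 than in the adult (median 0.23), and between P5 and P10 there were 4 higher and 1 lower (0.27). These are 18.2% and 45.5% called, beside 17.5% and 41.2% of all genes.

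Of the 5 regulators, 1 was higher and 2 were lower at P5 than in the adult, with a median of -0.09. The share called was 60%, beside 53.1% of all genes. At P10, 2 regulators were lower than in the adult and 0 higher (median -0.41), or 40% beside 17.5% of all genes. Between P5 and P10, 1 was higher and 0 lower (0.12), or 20% beside 41.2%. Insig2, an endoplasmic reticulum protein that retains Scap, was lower at the younger age on all 8 arrays. The P5/adult arrays gave -0.61 and -0.77, the P10/adult arrays -0.38 and -0.43, the dye-exchanged arrays -0.72 and -0.80, and the P5/P10 arrays -0.13 and -0.28. Its P5 level was 1.87-fold below the adult (-0.91 ± 0.10, SE, n = 2; limma adjusted p = 0.00307) and its P10 level was at -0.56 (0.0273). A second probe gave -0.42 at P5 (adjusted p = 0.0552) and -0.59 at P10 (0.0495), the same sign without a call at P5. In P5 against P10 the probes differed in sign, at -0.34 and 0.16, with no call from either.

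Insig1, its paralogue and itself an SREBP target, had the widest replicate gap of the 31. Its P5/adult arrays gave 0.37 and -0.31 and its P5/P10 arrays 0.86 and 0.16. Against the adult, the fitted P5 values were 0.59 in replicate 1 and -0.45 in replicate 2, a gap of 1.05. On the P10/adult arrays it gave -0.47 and -0.34, and -0.16 and -0.61 with exchanged dyes, all below 0. None of its differences passed (0.07 ± 0.27 at P5, limma adjusted p = 0.838; -0.41 at P10, 0.387).

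Srebf1, the SREBP gene tied mainly to fatty acid synthesis, was lower than in the adult at both young ages. Its replicates were at -0.24 and -0.40 at P5 and at -0.40 and -0.48 at P10 (-0.32 and -0.44, limma adjusted p = 0.0463 and 0.0448). Srebf2, tied mainly to cholesterol synthesis, was at -0.23 and 0.04 at P5 and 0.26 and 0.13 at P10, with no call. Scap was higher at P5 than in the adult (0.36 and 0.37; adjusted p = 0.0321) and than at P10 (0.52, 0.0176). None of these values speaks of the cleaved proteins, which the arrays do not measure.

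Of the 3 sterol carriers, 2 were lower at P5 than in the adult and none was higher, with a median of -0.47. That is 66.7% called, beside 53.1% of all genes (23% lower). Stard4, a soluble protein that moves cholesterol between membranes, gave -1.16 and -0.40 on the P5/adult arrays, -0.28 and -0.18 on the P10/adult arrays, -0.20 and -0.28 with exchanged dyes and -0.48 and -0.63 on the P5/P10 arrays. All 8 were below 0. The P5 level was 1.73-fold below the adult (-0.79 ± 0.12, SE, n = 2; limma adjusted p = 0.00594) and -0.56 relative to P10 (0.0217), and its other probe gave -0.74 (0.00942). Npc1, which exports cholesterol from lysosomes, was at -0.41 and -0.53 at P5 (-0.47, limma adjusted p = 0.0268) and at 0.19 and -0.15 at P10. Npc2, which hands cholesterol to Npc1, was at -0.22 ± 0.14 at P5 and was not called (0.213). No carrier was called between P10 and adult (median 0.02), beside 17.5% of all genes. Between P5 and P10, 2 were lower and 0 higher (-0.49), or 66.7% beside 41.2%.

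In fatty acid synthesis, the P5 level exceeded the adult in 2 of 5 genes and lay below it in 1, with a median of 0.02. These are 60% of the group, beside 53.1% of all genes called. Fasn, the synthase that builds palmitate, gave 0.76 and 0.86 on the P5/adult arrays and 0.61 and 0.64 on the P5/P10 arrays. On the P10/adult arrays it gave 0.33 and 0.30, and 0.05 and 0.14 when the dyes were exchanged. All 8 were above 0, with the smallest values between P10 and adult. The P5 level was 1.63-fold that of the adult (0.71 ± 0.10, SE, n = 2; limma adjusted p = 0.00507) and 0.50 above P10 (0.0191), and P10 against adult did not pass (0.20, 0.241).

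Elovl6, the elongase that extends palmitate to stearate, was 0.86 and 0.97 above the adult at P5 (0.91 ± 0.11, SE, n = 2; limma adjusted p = 0.00338). At P10 it was 0.53 and 0.39 above, which fell just short (0.46, adjusted p = 0.0502), and P5 exceeded P10 by 0.46 (0.0283).

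The desaturases, which place the first double bond, did not follow the synthase. Scd1 gave -0.97 and -0.39 on the P5/adult arrays, -0.87 and -0.57 on the P10/adult arrays, -1.27 and -0.78 with exchanged dyes, and -0.40 and 0.11 on the P5/P10 arrays. Both young ages were below the adult on every array that held adult RNA, by a larger margin in replicate 1. The P5 level was 1.95-fold below the adult (-0.97 ± 0.20, SE, n = 2; limma adjusted p = 0.0157), and P10 did not pass (-0.80, 0.0587). Scd2, the desaturase of developing brain, was at -0.14 at P5 and -0.28 at P10 with no call. Acly, the cytosolic source of acetyl-CoA for both pathways, was at 0.02 at P5 (0.871). Its second probe had the opposite sign in each comparison, at -0.11 against 0.02 at P5, 0.02 against -0.12 at P10 and -0.13 against 0.14 between them, with no call. No fatty acid gene of the 5 was called between P10 and adult (median -0.12), beside 17.5% of all genes. Between P5 and P10, 2 were higher and 0 lower (0.14), or 40% beside 41.2%.

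By course, 21 of the 31 genes (67.7%) were called in at least 1 comparison, beside 61.6% of all genes. Mvk, Sqle and Tm7sf2 were higher at the younger age in all 3. Fdps, Lss, Scap, Fasn and Elovl6 were higher at P5 than at both later ages, while Hmgcs1 and Mvd were higher at both young ages than in the adult. Fdft1, Cyp51 and Hsd17b7 passed only between P5 and adult, and Pmvk and Msmo1 only between P5 and P10. On the lower side, Ebp, Stard4 and Npc1 were lower at P5 than at both later ages, Srebf1 and Insig2 were lower at both young ages than in the adult, and Scd1 passed only at P5. A gene that passed in one comparison and not in another is not thereby shown to differ between them.

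A further 43 genes of sterol and fatty acid metabolism could be tested, from 44 listed. At P5, 11 were higher and 15 lower than in the adult (median -0.13), or 60.5% beside 53.1% of all genes. Fabp7, the fatty acid binding protein of radial glia, led with 4.37 ± 0.13, ahead of its relative Fabp5 (2.42) and the sterol transfer protein Gramd1a (1.53). The lowest were the elongase Elovl7 (-2.20 ± 0.09), the mitochondrial acetyl-CoA carboxylase Acacb (-1.49) and the cholesterol hydroxylase Ch25h (-1.18).

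At P10, 3 of the 43 were higher than in the adult, Fabp7 (2.43), Fabp5 (1.92) and the thiolase Acat1 (0.87), and 3 were lower, Elovl7 (-1.13), the acyl-CoA synthetase Acsl3 (-0.92) and the phosphatidate phosphatase Lpin1 (-0.74), with a median of -0.06. These are 14% of the 43, beside 17.5% of all genes. Between P5 and P10, 9 were higher and 10 lower (median -0.01), or 44.2% beside 41.2%. Fabp7 (1.94), Gramd1a (1.34) and the lipoprotein receptor Vldlr (1.05) led that comparison, and Elovl7 (-1.07), Acacb (-0.76) and the elongase Elovl1 (-0.64) were lowest. The elongases among the members and these further genes thus differed in direction at P5 against the adult. Elovl6 was called higher, and Elovl7, Elovl1 (-0.81) and Elovl5 (-0.63) were called lower. Elovl4, which was in neither list, was at 0.75.

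The values depended on the normalization. Loess removes trends with brightness, and a single shift per array does not. The part of such trends in the changes below was not tested. With each array centred on its median in place of loess, the member median between P5 and adult changed from 0.23 to -0.16, with 6 genes higher and 7 lower (49.1% of all genes called), and that of all genes moved by -0.17. All 31 values were lower than after loess, by a shift from -0.09 (Hsd17b7) to -0.66 (Acly). Mvd, Sqle, Lss, Tm7sf2, Fasn and Insig2 remained called between P5 and adult under all 11 alternative settings. They were also called without each of the 8 arrays in turn. The share of all genes that held in these ways was not counted. Under median centring, calls between P5 and adult were lost by Hmgcs1 (0.47, limma adjusted p = 0.174), Mvk, Fdps, Fdft1, Hsd17b7, Srebf1 and Elovl6 (0.51, 0.0877). Scd2 (-0.77, limma adjusted p = 0.034) and Npc2 (-0.87, 0.0368) gained calls as lower there. Between P5 and P10, Insig2 (-0.89, limma adjusted p = 0.0157) and Npc2 (-0.93, 0.0332) gained calls as lower. Over all genes, the share of calls that were higher went from 56.6% to 46.6% between P5 and adult and from 55.8% to 39.9% between P5 and P10. Among members called after loess, Scap turned sign between P5 and adult without a call (-0.29). So did Mvk (-0.35), Pmvk (-0.38), Fdps (-0.07), Msmo1 (-0.34) and Scap (-0.18) between P5 and P10. Members not called after loess turned sign too, among them Pmvk between P5 and adult (0.28 to -0.37) and Hmgcs1 between P5 and P10 (0.31 to -0.40).

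**Figure D4:**
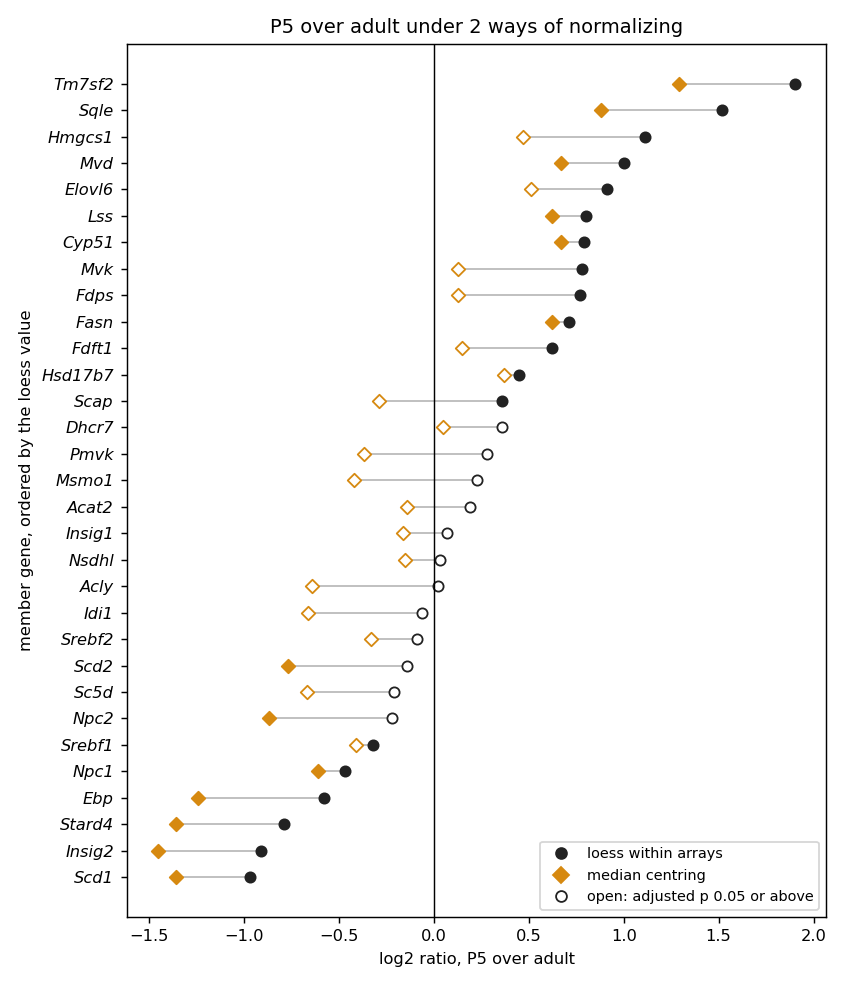
Log2 ratio of each of the 31 genes between P5 and adult after loess and after median centring of each array. All members lie lower after median centring, with Tm7sf2 and Sqle still the highest.

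The calls between P10 and adult rest on few arrays. Without the P10/adult array of replicate 1, or without its dye-exchanged counterpart, limma called 0 of the 31 genes (11 had an unadjusted p under 0.05 in each case), and 6.14% and 8.81% of all genes. Without either of the same arrays of replicate 2, it called 3 members, with 12.8% and 11.2% of all genes. Between P5 and P10, 5 and 6 genes were called without these replicate 1 arrays and 8 without the P5/adult array of replicate 1, in place of 13, with 26.5%, 25.5% and 38.6% of all genes. Between P5 and adult, leaving out any of the 8 arrays left 14 to 19 calls, with 38.7% to 52.9% of all genes. Srebf1 lost its call without any of 6 arrays, Hsd17b7, Scap and Npc1 without any of 3, and Cyp51, Stard4 and Scd1 without 1. The other 12 of the 19 were called without each array in turn. In P5 against P10, Fdps, Lss, Tm7sf2, Scap and Fasn were called each time, and Mvk and Pmvk lost their calls without any of 7 arrays. The share of all genes that kept a call through every omission was not counted, so these counts have no scale beside them.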

How the data were processed

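Each of 8 arrays compared RNA of 2 ages; age, dye and replicate came from the labels. Per the file headers, the deposited median signals, local backgrounds and processed signals are linear intensity values from Agilent Feature Extraction 10.5.1.1 (the submitters' processing notes name 12.6). Between 65.2% and 73.3% of spots per channel were well above background. With R 4.3.3 and limma 3.58.1, median signals were corrected by normexp (offset 50) and normalized by loess (span 0.3). The 11 spots on 2 arrays with a signal over 100 below background, and outlier spots, were left out. Of 39429 probes, 27427 matched a symbol in RefSeq's table (GRCm38.p6; the array's design names another build, so its coordinates were not used), and 27190 were well above background at an age. A gene is its brightest probe; other probes are given where sign or call differ, with p from a fit over all probes kept. Each slide's 4 ratios gave 1 value per age by least squares with a dye term. limma then fitted age and replicate (2 residual and 2.91 prior degrees of freedom). Ratios exist only within an array, so the replicate block is part of the fit; the dye-exchanged array counts as the same replicate, and over all probes it correlated with its counterpart at -0.864 and -0.882 before its sign was turned. Every member is named. Of the further pathway genes, the 3 highest and 3 lowest called in each comparison are named, and Elovl5 beside the other elongases. Elovl4, from outside the lists, is named there too. The slide fit and limma were tested on simulated ratios in which most genes did not change. Background correction and loess were not part of that test. The members, lists and choices were made with earlier results of these data known.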

Additional observations from a re-analysis of the deposited data

How the results depend on the processing

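With 2 replicates, a fit without either has no residual degrees of freedom and gives values only: the member medians were then 0.27 to 0.28 between P5 and adult, 0.02 to 0.19 between P10 and adult and 0.15 to 0.26 between P5 and P10. The cause of the changes below was not tested; a fit without an array has fewer data. All counts are from limma.

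Between P5 and adult (19 genes called, 13 higher and 6 lower, median 0.23), the median was 0.17 with normexp fitted on all spots, -0.16 with median centring (6 higher and 7 lower), 0.19 with the mean of all probes, 0.28 without a dye term and 0.18 without the 2 arrays with faulty background spots. A fit that dropped the replicate block and also replaced the ratios by channel levels after Aquantile normalization gave 0.28, with 9 genes called (8 higher and 1 lower; 38.2% of all genes). It changed both choices at once, so their parts cannot be told apart.

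Between P10 and adult (7 called, 5 higher and 2 lower), 0 genes were called, 0 higher and 0 lower, with normexp fitted on all spots (9 at an unadjusted p under 0.05; 1.17% of all genes called) and without the 2 arrays (11 at that level; 8.65%). Processed signals gave 4 (3 higher and 1 lower; 12.9% of all genes). Median centring gave 1 (5.83%), and so did channel levels after Aquantile without the replicate block (8%), with 1 higher and 0 lower in each. The 8 arrays fitted directly, as if independent, gave 20 (12 higher and 8 lower), with 45.8% of all genes in place of 17.5%.

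Between P5 and P10 (13 called, 10 higher and 3 lower, median 0.14), normexp fitted on all spots gave 0, 0 higher and 0 lower (7 at an unadjusted p under 0.05), and 0% of all genes. Processed signals gave 7 (4 higher and 3 lower; 40.5% of all genes) and the fit without the 2 arrays 4 (3 higher and 1 lower; 25.8%). Median centring gave 6 (1 higher and 5 lower, median -0.34; 43.1%), and channel levels after Aquantile without the replicate block 2 (2 higher and 0 lower, median 0.22; 23.9%).

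Of the members called in the main fit, Scap turned to -0.29 between P5 and adult under median centring, and some uncalled members also turned sign. Between P5 and P10, Mvk turned to -0.35, Pmvk to -0.38, Fdps to -0.07, Msmo1 to -0.34 and Scap to -0.18. No call between P10 and adult or between P5 and P10 held under all 11 alternative settings, whereas 6 between P5 and adult did. Between P5 and P10 no gene could hold, since normexp fitted on all spots called 0% of all genes. Between P10 and adult that setting called 1.17% of all genes. The share of all genes whose calls held under every setting was not counted.

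Leaving out each array in turn, chosen after the data were seen, gave 14 to 19 calls (10 to 13 higher and 3 to 6 lower, median 0.21 to 0.24) between P5 and adult. Between P10 and adult it gave 0 to 8 (0 to 5 higher and 0 to 3 lower, median 0.04 to 0.08), and between P5 and P10 5 to 13 (5 to 10 higher and 0 to 3 lower, median 0.15 to 0.31).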
